A study of Mus musculus with 120 samples.

Results

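Otoconia are the calcium carbonate crystals of the balance organs of the inner ear, and 9 genes for their protein matrix and formation were described here in single cells of the mouse endolymphatic sac at embryonic day E14.5. The genes were chosen by name, as otoconial matrix proteins (Oc90, Otol1, Spp1, Sparc, Sparcl1), parts of an NADPH oxidase (Nox3, Noxo1, Cyba) and an otopetrin (Otop1). Of these, 8 of 9 were found among the 48371 gene symbols of the table, and Cyba was not analysed here. The genes were chosen with earlier results of these data known. Counts of members beside the shares of all genes are therefore descriptions only. The cells were 62 from sacs labelled Sox9Y440X/+, which carry 1 Sox9 allele with a stop codon named for residue 440 beside 1 wild-type allele, and 58 from wild-type sacs. They were profiled by Smart-seq2, which sequences whole transcripts of single cells. The values are FPKM, in which the fragments of a gene are divided by the length of its transcript and by the sequencing depth of the cell. Levels of different genes can so be compared within a cell. Between cells the scale is less even. The FPKM of all genes summed to 1.92e+05 in the lowest cell, 4.63e+05 in the median and 4.44e+06 in the highest. The same FPKM is thus not the same share of each cell. No label names an animal, litter, sex or plate, so each genotype is 1 sample, cells are not replicates, and no p-value is given. The 95% intervals of shares of cells are exact Clopper-Pearson intervals and cover counting error only.

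Otoconin-90, the product of Oc90, is the main protein of mammalian otoconia and belongs to the secreted phospholipase A2 family without being an active enzyme. Otolin-1 (Otol1) is a collagen-like scaffold protein of the same matrix. Osteopontin (Spp1), SPARC (Sparc) and SPARC-like 1 (Sparcl1) are secreted, acidic, calcium-binding glycoproteins of mineralised and other matrices. Nox3 is the catalytic subunit of an NADPH oxidase of the inner ear that works with the small subunit p22phox (Cyba) and the organiser Noxo1, and mice that lack any of these form no otoconia. Otop1 is a proton channel, and its mutants likewise lack otoconia. The sac is a blind outpocketing of the labyrinth that regulates the ions and volume of endolymph. FOXI1 is the transcription factor of its proton- and anion-transporting ionocytes, and SOX9 and SOX10 are related SoxE factors of otic epithelium.

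Promoters of Nox3 and Spp1, which differed between wild-type cells with and without Foxi1 or Sox10, are shown first, because both comparisons turn on transcription factors. RefSeq promoter entries on build GRCm38.p6, each of 300 bases from 250 before to 50 after a transcription start, matched 6 members. Oc90 and Sparcl1 have no entry there. Oc90 differed in both comparisons too, by -1.79 for Foxi1 and 1.80 for Sox10, against 1.58 and 2.29 for Spp1. The choice of windows thus does not follow the size of the differences alone. The 2 windows below are that of Nox3 (chr17:3696212-3696511, minus strand) and the first of 2 for Spp1 (chr5:104434861-104435160, plus strand), written 5′ to 3′ on the strand of the gene. Capitals mark letters of the core SOX motif, searched on both strands as ACAAT and as ACAAAG.
Nox3: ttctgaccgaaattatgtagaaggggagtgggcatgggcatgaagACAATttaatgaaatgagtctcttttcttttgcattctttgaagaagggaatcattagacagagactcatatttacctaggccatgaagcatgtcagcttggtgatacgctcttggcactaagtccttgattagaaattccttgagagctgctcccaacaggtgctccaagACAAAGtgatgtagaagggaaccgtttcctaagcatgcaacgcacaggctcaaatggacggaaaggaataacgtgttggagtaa
Spp1: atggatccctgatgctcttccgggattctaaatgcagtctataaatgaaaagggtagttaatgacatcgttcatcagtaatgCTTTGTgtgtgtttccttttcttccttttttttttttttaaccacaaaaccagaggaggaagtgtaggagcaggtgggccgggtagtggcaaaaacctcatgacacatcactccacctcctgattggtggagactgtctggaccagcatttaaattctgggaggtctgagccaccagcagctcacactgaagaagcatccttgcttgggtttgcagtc
Nox3 held ACAAT once, starting at base -205 from the start, and ACAAAG once, at -34. Spp1 held ACAAAG once on the opposite strand, at -168, and its other window held it once at -243. The entries of Otol1, Otop1, Sparc and Noxo1 held neither. Such letters are common: ACAAT was present in 31% and ACAAAG in 18.7% of 32851 mouse promoters of the same length. The longer SOX form AACAAT (10.7% of promoters), the forkhead letters TGTTTAC (3.65%) and an inverted SOX pair (0.0974%) were in no member window. These matches describe the letters and show no binding.

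Cells with at least 1000 genes per their label were used, 58 Sox9Y440X/+ and 57 wild-type. Clustering without the 9 members, Foxi1 and Sox10, followed by naming from marker lists, gave 37 Sox9Y440X/+ and 56 wild-type epithelium-like cells and 21 Sox9Y440X/+ and 1 wild-type mesenchyme-like cells, so that the sac label covers both. Each of the 14 epithelium markers was detected in at least 10% of the epithelium-like cells of both genotypes, and no cell had 5 or more epithelium together with 5 or more mesenchyme markers. Epithelium-like Sox9Y440X/+ cells had a median of 4506 genes above 0, against 3241.5 in wild type. Sox9, whose transcript level does not show the mutation, was at an FPKM of at least 1, the limit used for detection throughout, in 36 of 37 Sox9Y440X/+ and 29 of 56 wild-type epithelium-like cells. Xist, expressed in female cells, was detected in 0 of 37 Sox9Y440X/+ and 34 of 56 wild-type epithelium-like cells, so cells marked as female were seen in wild type alone and results are also given by Xist.

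Over all cells used, Oc90, Spp1 and Nox3 were lower in Sox9Y440X/+ cells, and Sparc was at nearly the same level. Differences are of mean log2(FPKM + 1), Sox9Y440X/+ minus wild type, and a difference of at least 1 log2 unit is counted as past the fold. Oc90 differed by -7.77, Spp1 by -3.44 and Nox3 by -2.42, while Noxo1 differed by -0.64 and Sparc by -0.13. As log2 ratios of mean FPKM the values were -1.13 for Spp1, -1.39 for Nox3 and -1.35 for Noxo1, the last then past the fold. Thus, of the 5 members that 10% or more of either genotype's cells expressed at the limit, 3 were past the fold downward, where 3.21% of 10527 genes were, and 0 of 5 upward, where 5.79% of genes were. The other 3 members in the table did not pass that filter. These values mix cell classes: 21 of 58 Sox9Y440X/+ cells were mesenchyme-like, against 1 of 57 wild-type cells.

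The mesenchyme-like cells carried a different set of members. Oc90, Nox3 and Noxo1 were detected in 0 of the 22, which allows a share of cells at the limit of up to 13.6% (3 cells of 22) or, by the exact interval, 15.4%. Spp1 was detected in 1 of them, at an FPKM of 47.7. Sparc, which codes for a collagen-binding matrix protein of many cell types, was detected in 21 of 22, with a median of 609 FPKM over the 21 Sox9Y440X/+ cells and 219.6 FPKM in the wild-type cell. Sparcl1 was detected in 4 Sox9Y440X/+ mesenchyme-like cells and in 0 of the other 111 cells used, 0 of 37 Sox9Y440X/+ and 0 of 56 wild-type epithelium-like cells among them. Its level was 286 FPKM in a cell with 10 of 10 endothelium and 0 of 12 mesenchyme markers. That cell was called mesenchyme-like by its cluster alone, its own markers are endothelial, and the counts of mesenchyme-like cells include it. Sparcl1 was at 107, 64.7 and 53.5 FPKM in 3 cells with 2 or 3 of 7 pericyte markers. Sparcl1 was detected in 3 of the 6 mesenchyme-like cells with at least 2 pericyte markers, and the other 3 of these had it at 0. Among the 16 mesenchyme-like cells with fewer pericyte markers it was detected in 1, the cell with the endothelium markers. The plot of members by cell class shows this division.

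**Figure D1:**
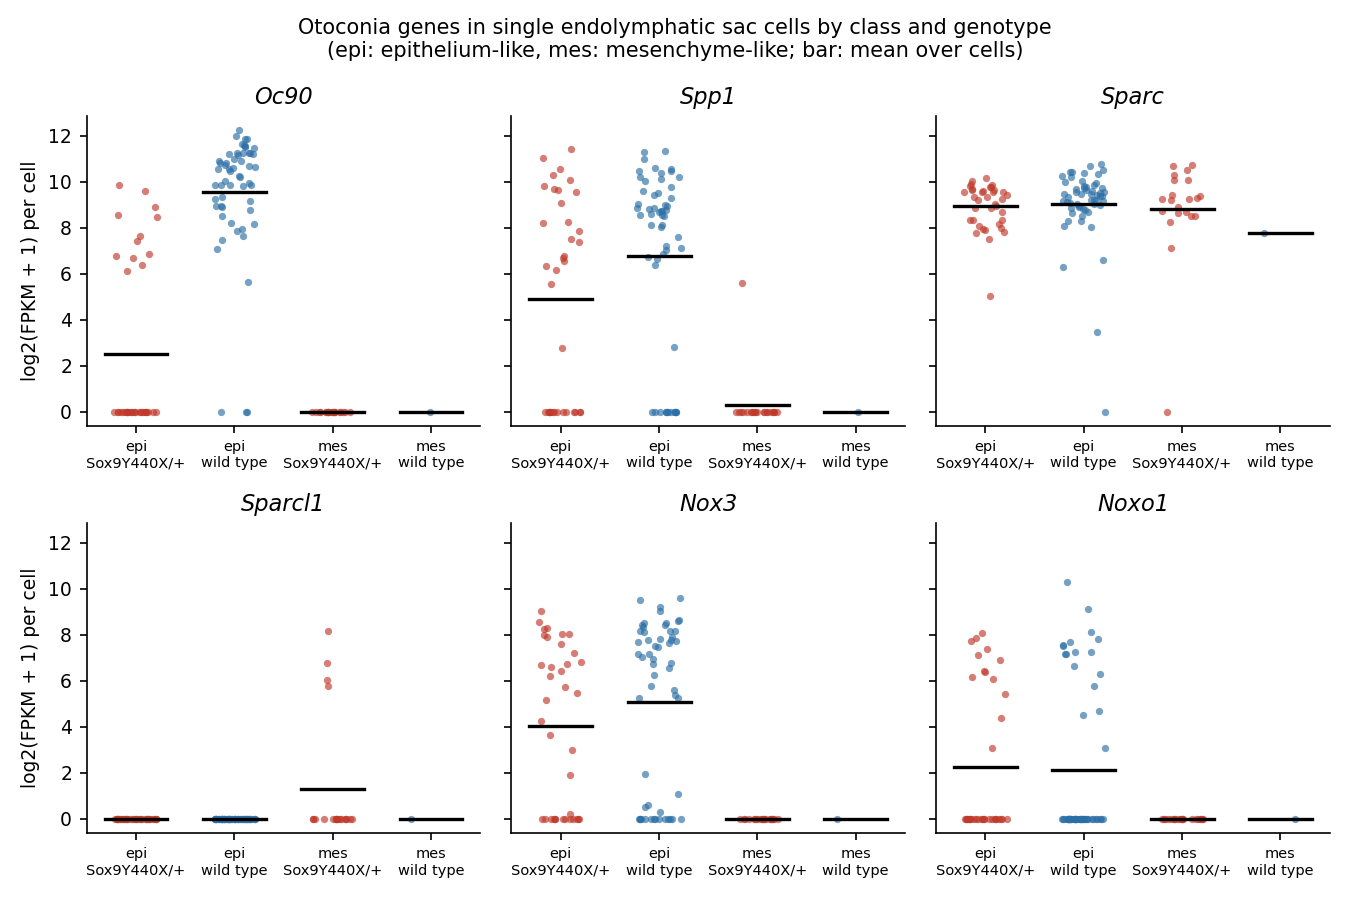
Level of 6 members in single cells, as log2(FPKM + 1), by cell class (epi, epithelium-like; mes, mesenchyme-like) and genotype; each point is 1 cell and the bar is the mean over cells. Oc90 averaged 2.52 in Sox9Y440X/+ and 9.55 in wild-type epithelium-like cells, while Sparc averaged 8.93 and 9.05 in the same cells.

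The remaining comparisons were made within epithelium-like cells. Oc90 showed the lowest difference between genotypes of the 10342 genes compared there. Its level in Sox9Y440X/+ cells had a lowest value, median and highest value of 0, 0 and 941 FPKM, against 0, 1326 and 4839.7 FPKM in wild-type cells. It was detected in 12 of 37 Sox9Y440X/+ cells (32.4%, 18% to 49.8%), against 53 of 56 wild-type cells (94.6%, 85.1% to 98.9%). The 12 Sox9Y440X/+ cells with Oc90 had a median of 187 FPKM, against 1501 FPKM in the 53 wild-type cells with it, so that both the share of cells and the level where present were lower. The difference of the means was -7.02, with means of 2.52 (SD 3.76 over cells) in Sox9Y440X/+ and 9.55 (SD 2.69) in wild type. As a log2 ratio of mean FPKM, 102 against 1490, it was -3.87.

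Spp1 and Nox3 were also past the fold in epithelium-like cells, but with widely overlapping cells. Spp1 ran over 0, 80.3 and 2752 FPKM (lowest, median, highest) in Sox9Y440X/+ cells, against 0, 382 and 2570.3 FPKM in wild-type cells. It was detected in 22 of 37 Sox9Y440X/+ cells (59.5%, 42.1% to 75.3%) and 43 of 56 wild-type cells (76.8%, 63.6% to 87.0%). Its highest single cell was a Sox9Y440X/+ cell. The difference was -1.88, the 17th lowest, on means of 4.90 (SD 4.41) and 6.78 (SD 4.01). Nox3 ran over 0, 35.5 and 529 FPKM in Sox9Y440X/+ cells, against 0, 115 and 787 FPKM in wild-type cells. It was detected in 23 of 37 Sox9Y440X/+ cells (62.2%, 44.8% to 77.5%) and 39 of 56 wild-type cells (69.6%, 55.9% to 81.2%), and the intervals overlap. Its difference was -1.04, the 126th lowest. Both calls depend on the scale: as log2 ratios of mean FPKM the differences were -0.51 for Spp1 and -0.76 for Nox3, under the fold, and with a pseudocount of 10 that of Nox3 was -0.74.

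Noxo1 and Sparc did not pass the fold. Noxo1 was detected in 13 of 37 Sox9Y440X/+ cells (35.1%, 20.2% to 52.5%) and 17 of 56 wild-type cells (30.4%, 18.8% to 44.1%), with a difference of 0.14 that changed sign between settings. Its gene lies on GRCm38 chromosome 17, 24696234 to 24700529, and overlaps Tbl3 on the opposite strand. Tbl3 was detected in 22 of the 30 epithelium-like cells with Noxo1 and in 5 of the 63 without it. Whether the reads were counted by strand is not given in the sources used here, so reads of the 2 genes cannot be told apart and every Noxo1 value is uncertain. Sparc had medians of 603 FPKM in Sox9Y440X/+ and 661 FPKM in wild-type cells and was detected in 37 of 37 and 55 of 56 of them, with a difference of -0.12. Otol1 was listed at 0 in each of the 120 cells, and Otop1 was above 0 in 1 Sox9Y440X/+ cell, at 0.313 FPKM, under the limit. In all, 3 of 5 members were past the fold downward, where 1.38% of genes were, and 0 of 5 upward, where 8.02% were, with a median difference over all genes of 0.22.

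How far these differences depend on which cells were compared varied by gene. In cells of 2500 to 5500 genes the difference was -7.64 for Oc90, -3.02 for Spp1 and -2.15 for Nox3. Against wild-type cells without Xist it was -6.94 for Oc90, -3.55 for Spp1, -1.69 for Nox3 and 1.03 for Noxo1. Against wild-type cells with Xist it was -7.08 for Oc90, -0.80 for Spp1 and -0.63 for Nox3, the last 2 under the fold. Within wild type, cells with Xist (34) had Spp1 lower than those without (22) by a difference of -2.75, with 23 of 34 against 20 of 22 cells detected. Clusters 2 and 7 were nearly of 1 genotype: cluster 2 held 10 Sox9Y440X/+ cells and 1 wild-type cell, and cluster 7 held 0 and 10. Without cluster 2 the difference was -7.30 for Oc90, -0.30 for Spp1 and -0.44 for Nox3. Without cluster 7 it was -7.34, -3.16 and -1.78 in the same order. Cluster 7 also had few genes per cell (median 2057.5), Xist in 9 of its 10 cells and Spp1 at 0 in most of them. The Spp1 difference by Xist was not tested apart from this cluster.

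**Figure D2:**
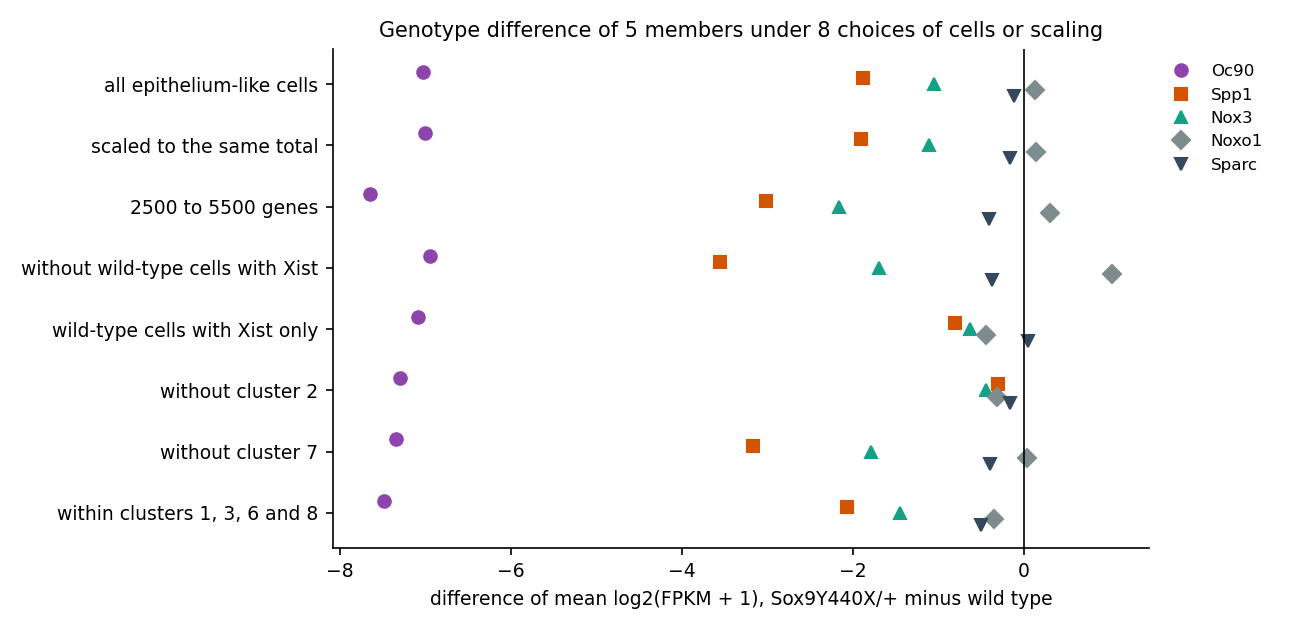
Difference of mean log2(FPKM + 1) between Sox9Y440X/+ and wild-type epithelium-like cells (horizontal axis, negative where Sox9Y440X/+ is lower) for 5 members under 8 choices of cells or scaling (rows). Oc90 stays between -7.64 and -6.94, whereas Spp1 runs from -3.55 to -0.30 and Nox3 from -2.15 to -0.44.

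The 4 clusters that held at least 5 cells of each genotype allow a comparison of more similar cells. In cluster 3, led by Aldh1a1, each genotype had 11 cells and a like number of genes, with medians of 5237 in Sox9Y440X/+ and 5346 in wild type. There Oc90 was detected in 3 of 11 Sox9Y440X/+ cells, at 102 to 173 FPKM, against 11 of 11 wild-type cells, at 284 to 3759 FPKM, and no Sox9Y440X/+ cell reached the lowest wild-type cell. The Oc90 difference in cluster 3 was -8.66. Spp1 was detected in 11 of 11 cells of both genotypes, with medians of 305 FPKM in Sox9Y440X/+ and 381 FPKM in wild type and a difference of 0.01. Nox3 was likewise in 11 of 11 cells of both, with medians of 103 and 282 FPKM in the same order and a difference of -1.17, the 1199th lowest of 10476 genes. Sox10 was detected in 1 of the 11 Sox9Y440X/+ cells and 11 of the 11 wild-type cells of this cluster.

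Cluster 6, whose leading genes were Spp1, Mt1 and Oc90 although no member was used to form it, held 6 Sox9Y440X/+ and 20 wild-type cells. Oc90 was detected in 4 of the 6 Sox9Y440X/+ and 19 of the 20 wild-type cells, with a difference of -4.73, the 6th lowest of the genes compared in the cluster. Spp1 was higher in Sox9Y440X/+ there: 6 of 6 cells at 292 to 2752 FPKM, against 19 of 20 wild-type cells with a median over the 20 of 455 FPKM, and a difference of 1.68, the 461st highest. Nox3 was in 6 of 6 and 18 of 20 cells, with a difference of 0.34. Cluster 8 held 5 Sox9Y440X/+ and 6 wild-type cells with few genes, medians of 2606 and 2367. Oc90 was in 0 of 5 and 6 of 6 of them, Spp1 in 0 of 5 and 4 of 6, and Nox3 in 2 of 5 and 5 of 6. The direction for Spp1 thus differed between clusters, while Oc90 was lower in Sox9Y440X/+ cells in each of the 4.

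**Figure D3:**
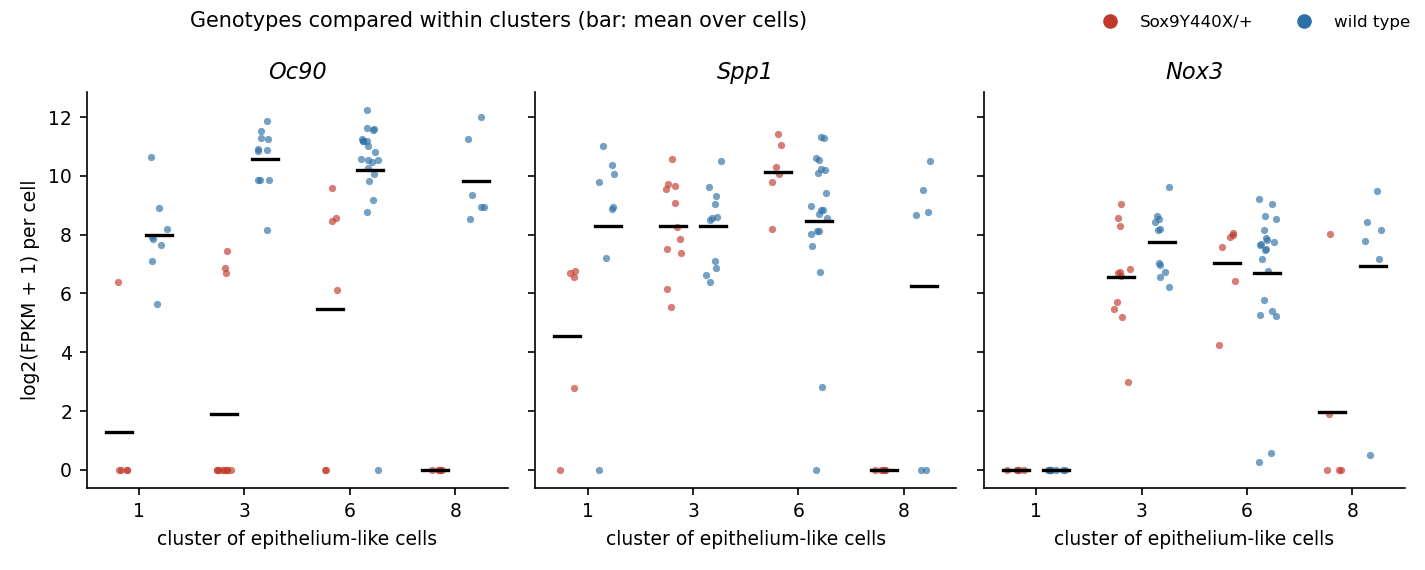
Oc90, Spp1 and Nox3 in single cells as log2(FPKM + 1), by cluster (horizontal axis) and genotype (Sox9Y440X/+ left of wild type); bars are means over cells. Oc90 was detected in 1 of 5, 3 of 11, 4 of 6 and 0 of 5 Sox9Y440X/+ cells of clusters 1, 3, 6 and 8, against 8 of 8, 11 of 11, 19 of 20 and 6 of 6 wild-type cells.

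Cluster 1, named ionocyte-like because 8 of the 10 ionocyte markers were each present in 50% or more of its cells over both genotypes, held 5 Sox9Y440X/+ and 8 wild-type cells. Each of these cells had Foxi1. By highest mean the cluster was epithelium-like, at 5.64 against 4.2 for the ionocyte markers. The ionocyte markers were unevenly spread. A Sox9Y440X/+ cell of the cluster had 2 to 5 of the 10 (median 3), against 7 or 8 (median 8) in a wild-type cell. The name thus rests mostly on the wild-type cells, and whether the Sox9Y440X/+ cells are of the same type was not tested. Oc90 was 82.4 FPKM in 1 Sox9Y440X/+ cell and 0 in the other 4, against 48.8, 135, 201, 229.6, 242, 295, 475 and 1587 FPKM in the wild-type cells. Spp1 was 0, 5.85, 93.3, 103 and 107 FPKM in the Sox9Y440X/+ cells, against 0, 148, 471, 488, 879, 1062, 1321 and 2058 FPKM in the wild-type cells. Apart from 1 wild-type cell at 0, each wild-type cell of cluster 1 had more Spp1 than any Sox9Y440X/+ cell of the cluster. The ionocyte markers moved with this result: over epithelium-like cells their summed log2(FPKM + 1) reached 35.6 in Sox9Y440X/+ and 59.3 in wild type. Among epithelium-like cells, Slc4a9 and Hepacam2 were at 0 in every Sox9Y440X/+ cell, Dmrt2 in every wild-type cell, and Rhcg in both. Their part in the Spp1 and Oc90 values of cluster 1 was not tested. Nox3 was listed at 0 in each of the 13 cells. Noxo1 was detected in 0 of the 5 Sox9Y440X/+ cells and 1 of the 8 wild-type cells.

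The next comparison set cells with Foxi1 against cells without it. In wild type, 22 epithelium-like cells had Foxi1 and 34 did not, with median gene numbers of 4491.5 and 3046. Nox3 was detected in 10 of the 22 Foxi1 cells (45.5%, 24.4% to 67.8%), with a median over the 22 of 0.22 FPKM, against 29 of the 34 others (85.3%, 68.9% to 95%), with a median of 181 FPKM. Its difference of -2.72 was the 8th lowest of 9585 genes. Oc90 was detected in nearly every cell on both sides, 20 of 22 and 33 of 34, at a lower level in Foxi1 cells: medians of 614 and 1673 FPKM and a difference of -1.79. Spp1 was higher in Foxi1 cells, in 19 of 22 against 24 of 34 cells, with medians of 443.5 and 279 FPKM and a difference of 1.58. Noxo1 (6 of 22 against 11 of 34 cells) differed by -0.65 and Sparc by -0.01. Downward, 2 of the 5 members passed the fold, where 2.41% of genes did. Upward it was 1 of 5, where 16% of genes did, so the Spp1 difference is of a size that many genes share in these gene-rich cells.

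Much of the Nox3 difference lay with the ionocyte-like cells of cluster 1. Outside cluster 1, Nox3 was detected in 10 of 14 wild-type Foxi1 cells, with a median of 119 FPKM, and the difference from cells without Foxi1 was -0.75. The level of Foxi1 followed the same division, a comparison chosen after the values were seen: Foxi1 ran from 7.19 to 608 FPKM, with a median of 52.6, in the 10 wild-type Foxi1 cells with Nox3, and from 134 to 1727 FPKM, with a median of 429, in the 12 without it. Of those 10 cells with Nox3, 8 also had Sox10, against 1 of the 12 without. Cluster 1 may not hold every ionocyte-like cell. The mean log2(FPKM + 1) of the ionocyte markers was 4.2 in cluster 1, 0.96 in cluster 7 and at most 0.146 in the other epithelium-like clusters. The 3 Foxi1 cells of cluster 7 had 364, 674 and 1017.5 FPKM of Foxi1, Nox3 at 0, and only 1209 to 2015 genes. The Oc90 difference was -0.88 among cells with at least 2000 genes, under the fold, and the Spp1 difference was 0.39 among wild-type cells without Xist.

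In Sox9Y440X/+ sacs, 7 epithelium-like cells had Foxi1 and 30 did not, with median gene numbers of 4520 and 4380. Nox3 was detected in 1 of the 7, at 113 FPKM, against 22 of the 30 others, whose median was 62.5 FPKM. The difference was -3.79, the 6th lowest of 11992 genes, and 5 of the 7 cells were those of cluster 1. Foxi1 was 3.37 FPKM in the 1 cell with Nox3 and 42.4 to 785 FPKM in the 6 without. Oc90 was in 1 of the 7 and 11 of the 30 cells (difference -1.99), and Noxo1 in 1 of 7 and 12 of 30 (difference -2.0). Spp1, in 5 of 7 and 17 of 30 cells, differed by -0.73 and Sparc by -0.21. Of the 5 members, 3 were past the fold downward, where 7.74% of genes were, and 0 upward, where 17.1% were. Whether the Foxi1 differences of the 2 genotypes differ from each other was not tested.

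**Figure D4:**
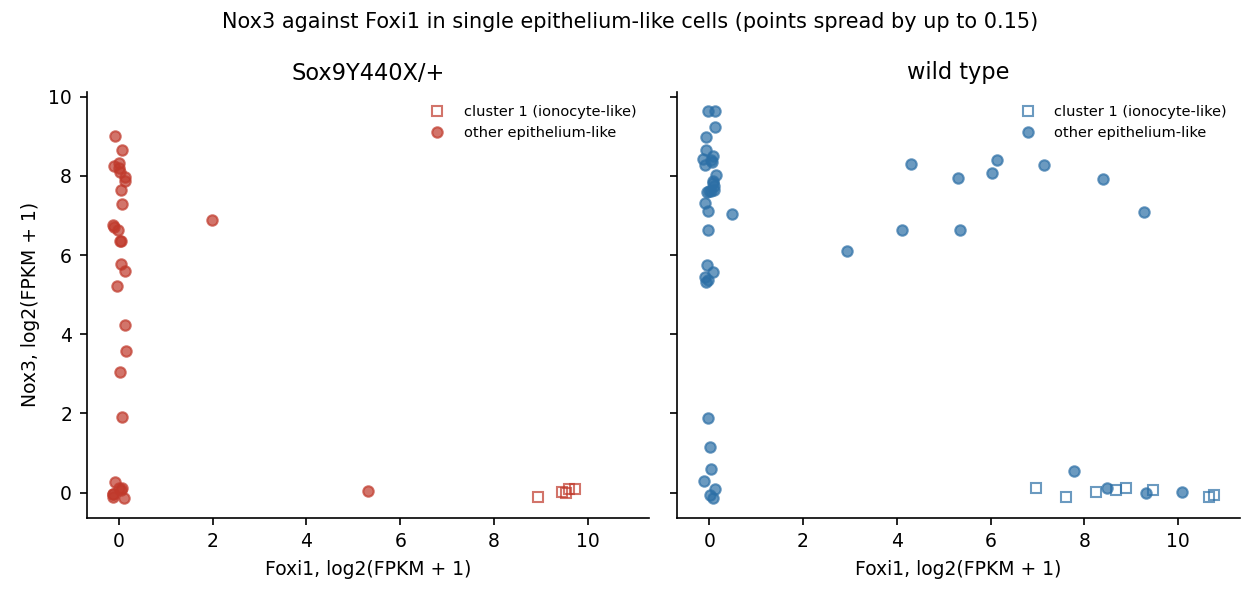
Nox3 (vertical axis) against Foxi1 (horizontal axis), both as log2(FPKM + 1), in epithelium-like cells of Sox9Y440X/+ (left) and wild type (right). Open squares are cells of cluster 1, named ionocyte-like mostly from its wild-type cells, and points are spread by up to 0.15. The 5 Sox9Y440X/+ and 8 wild-type squares lie at high Foxi1 and no Nox3, and 10 wild-type cells outside cluster 1 hold both genes.

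Split by Sox10, wild-type cells differed the other way for Nox3 and Oc90, while Spp1 was again higher on the side with the factor. Sox10 was detected in 26 wild-type epithelium-like cells and not in 30, with median gene numbers of 3936.5 and 2713.5. Nox3 was detected in 24 of the 26 Sox10 cells (92.3%, 74.9% to 99.1%), with a median of 161 FPKM, against 15 of the 30 others (50%, 31.3% to 68.7%), with a median of 1.69 FPKM. Its difference of 2.93 was the 21st highest of 10182 genes. Oc90 was detected in 26 of 26 and 27 of 30 cells, with medians of 1627 and 595 FPKM and a difference of 1.80. Spp1 was in 24 of 26 and 19 of 30 cells, with medians of 382 and 335 FPKM and a difference of 2.29. Noxo1, in 10 of 26 and 7 of 30 cells, differed by 0.68 and Sparc by 0.11. Upward, 3 of 5 members passed the fold, where 14.9% of genes did, and downward 0 of 5, where 1.71% did. Part of each difference is the share of cells at 0: as log2 ratios of mean FPKM the values were 0.64 for Nox3, 0.58 for Oc90 and 0.09 for Spp1. Among wild-type cells without Xist the Spp1 difference was 0.44 and that of Nox3 1.75.

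The 2 splits overlap, since 9 wild-type cells had both genes, 13 had Foxi1 alone, 17 had Sox10 alone and 17 had neither. Nox3 was detected in 8 of 9 cells with both, 2 of 13 with Foxi1 alone, 16 of 17 with Sox10 alone and 13 of 17 with neither. Nox3 had its lowest share in cells with Foxi1 and no Sox10 (15.4%, 1.92% to 45.4%). Without Foxi1 cells the Sox10 difference was 1.05 for Nox3 and 0.94 for Oc90. Oc90 had its lowest median, 242 FPKM, in cells with Foxi1 alone, against 928 FPKM with both, 1828 FPKM with Sox10 alone and 1541 FPKM with neither. Spp1 was detected in 9 of 9, 10 of 13, 15 of 17 and 9 of 17 cells, in the order both, Foxi1 alone, Sox10 alone and neither. Of the cells with Foxi1 alone, 7 of 13 were in cluster 1. In Sox9Y440X/+, only 2 epithelium-like cells had Sox10: one had 471 FPKM of Oc90, 306 of Nox3 and 0 of Spp1, and the other had 0, 43.6 and 537 FPKM of these genes. Without Sox10, Oc90 was in 11 of 35 and Nox3 in 21 of 35 Sox9Y440X/+ cells.

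**Figure D5:**
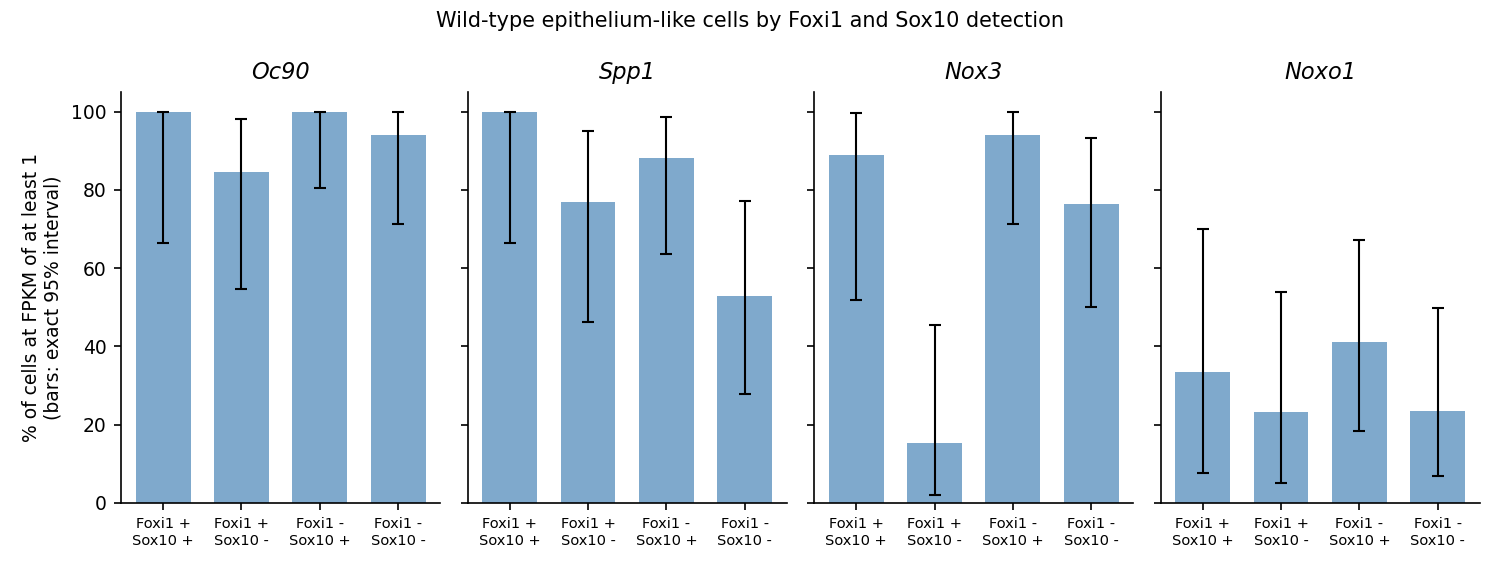
Percent of wild-type epithelium-like cells at an FPKM of at least 1 for 4 members, by detection (+) or not (-) of Foxi1 and Sox10 (9, 13, 17 and 17 cells from left to right); error bars are exact 95% intervals for counting error. Nox3 was detected in 15.4% of cells with Foxi1 and no Sox10, and in at least 76.5% of the cells of the other 3 kinds.

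Several members occurred together in single cells. Of the 6 that were detected in any cell, Sox9Y440X/+ epithelium-like cells held 1 to 5, with 1 member in 6 cells, 2 in 9, 3 in 8, 4 in 11 and 5 in 3. Wild-type cells held 0 to 5, with 0 in 1 cell, 1 in 1, 2 in 5, 3 in 12, 4 in 25 and 5 in 12. In Sox9Y440X/+, 10 of the 12 cells with Oc90 also had Nox3, against 13 of the 25 cells without Oc90, and the Spearman rho of the 2 levels was 0.54 over 37 cells. In wild type 38 of the 53 cells with Oc90 had Nox3, and rho was 0.42 over 56 cells. For Spp1 and Nox3 rho was 0.54 in Sox9Y440X/+ and 0.33 in wild type. These are descriptions over cells of 1 sample each, which share their source and differ in depth; the rho with the number of genes per cell was -0.05 in Sox9Y440X/+ and 0.02 in wild type for Oc90, -0.06 and 0.10 for Nox3, and -0.02 and 0.33 for Spp1.

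The genes whose levels most resembled Oc90 over the 56 wild-type epithelium-like cells, among 3930 genes, were Cst3 (rho 0.68), Cdh2 (0.58), Clu (0.51), H2-Oa (0.51), Msx2 (0.50) and Slc24a4 (0.48). Cst3 codes for the protease inhibitor cystatin C, Cdh2 for N-cadherin, Clu for the chaperone clusterin and Slc24a4 for a potassium-dependent sodium-calcium exchanger. Over the 37 Sox9Y440X/+ cells, of which 12 had Oc90 detected, their rho with Oc90 ran from -0.10 for Cdh2 to 0.26 for Slc24a4. Slc24a4 was detected in 1 of 37 Sox9Y440X/+ and 17 of 56 wild-type cells. For Spp1 the 6 were Mt1 (0.68) and Mt2 (0.59), which code for metallothioneins, B2m (beta-2 microglobulin, 0.64), Ftl1 (ferritin light chain, 0.62), Mcoln3 (a mucolipin cation channel, 0.61) and Dkk3 (0.59). In Sox9Y440X/+ cells the rho with Spp1 was 0.72 for Mt1, 0.54 for Mcoln3, 0.54 for Ftl1, 0.48 for B2m and 0.47 for Mt2. That of Dkk3, an extracellular Dickkopf-family protein, was -0.05. All these genes were picked by their rho in wild type, so the 2 genotypes are not compared on equal terms.

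Other genes of crystal formation came from lists of 3 to 13 genes each. Of the list of carbonic anhydrases and bicarbonate transporters, which set carbonate and pH, 7 of 10 were detected in at least 10% of epithelium-like cells of 1 genotype, and in Sox9Y440X/+ cells 0 were past the fold upward, where 8.02% of all genes were, and 2 downward, where 1.38% were. These were Slc26a4, the pendrin anion exchanger (2 of 37 against 12 of 56 cells, difference -1.47), and Car2, carbonic anhydrase 2 (19 of 37 against 35 of 56 cells, -1.29). The list's median difference was -0.58, against 0.22 over all genes. In wild type 4 of its 7 detected genes were past the fold upward in Foxi1 cells, where 16% of all genes were, among them Slc26a4 by 4.46 and Car2 by 4.21. By Sox10, 1 of its 7 detected genes was past the fold downward, where 1.71% of genes were, and this was Slc26a4 (1 of 26 Sox10 cells against 11 of 30 others, difference -2.79). Among calcium pumps and exchangers 5 of 11 were detected, with 1 upward (8.02% of all genes), the sarcoplasmic and endoplasmic reticulum pump Atp2a2 (difference 1.03), and 1 downward (1.38% of all genes), Slc24a4 (-1.26), at a list median of -0.01. In wild-type Foxi1 cells Slc24a4 was also lower, by a difference of -1.39. In wild-type Sox10 cells 2 of the 4 detected calcium genes were past the fold upward, where 14.9% of all genes were, Atp2a2 by 1.23 and the plasma membrane pump Atp2b4 by 1.19.

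Partners and relatives of the members were sparse. The gene of the small GTPase Rac1, a regulator of NADPH oxidases, was in 36 of 37 Sox9Y440X/+ and 44 of 56 wild-type epithelium-like cells (difference 0.93), under the fold. Of 8 SPARC family genes, Sparc and Sparcl1 among them, 3 were detected and 1 was past the fold upward, where 8.02% of all genes were: Fstl1, a secreted follistatin-like protein, in 24 of 37 Sox9Y440X/+ and 25 of 56 wild-type cells (difference 1.57). Of 13 genes of acellular gels and other otoconia-associated proteins, tectorins and otogelin included, 1 was detected, the secretory kinase gene Fam20c, in 12 of 37 and 9 of 56 cells with a difference of 0.42. Of the secreted phospholipase A2 family 2 of 11 were detected, Oc90 and Pla2g12a, and 0 of 3 otopetrins were.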

How the data were processed

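The authors deposited 1 table of FPKM values for 120 cells. Per the submitters' processing notes, build mm10 and the tools Cufflinks, HISAT2, HTSeq and SAMtools 0.1.18 were used. For their roles, settings and strand handling, nothing is given in the sources used here. Without read counts in the file, sequencing depth per cell is unknown. An exact 0 can be a failed estimate, since even Gapdh had 0 in 2 of 115 cells. Entries of the same symbol were summed (48555 entries, 48371 symbols), and 99.26% of identifiers were in GENCODE M21 on GRCm38, which gave coordinates.

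Cells under 1000 genes per their label were left out (4 Sox9Y440X/+, 1 wild-type). The cells were divided into 8 clusters by Ward linkage on 15 principal components of 1500 variable genes, without the members, Foxi1 and Sox10, and named by the marker list of highest mean with at least 3 markers in 50% of cells. Doublets were not called. Detection means FPKM of at least 1. Differences are of mean log2(FPKM + 1), which understates those of low genes, over genes detected in 10% of the cells of 1 group, and are counted past 1 log2 unit. The calculation was tested on simulated data. Named genes were the members, the 6 genes of highest rho to Oc90 and to Spp1 (genes in 25% of cells, without Gm-number, Rik, pseudogene and ribosomal symbols), and up to 4 genes per list past the fold, or else the 2 most abundant. Members and lists were chosen with earlier results of these data known. Promoters are RefSeq entries (GRCm38.p6). Python 3.11.15, numpy 2.4.6, pandas 2.3.3, scipy 1.17.1 and matplotlib 3.10.9 were used. The closing section gives the other settings tried.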

Additional observations from a re-analysis of the deposited data

How the results depend on the processing

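Among 12 differences of at least 1 log2 unit, 168 recomputed values held 0 of opposite sign, 129 within a factor of 1.5 of the reported one and 39 outside it. That factor and the settings that use Xist or single clusters were chosen after seeing the data. Part of the 129 could not move, because the setting left the compared cells unchanged and returned the reported value. In the epithelium-like comparisons these settings were 5 clusters, 12 clusters, 3000 variable genes and all 120 cells. The Foxi1 limit of 5 FPKM was another. The Oc90 difference between genotypes as a log2 ratio of mean FPKM was -4.49 for all cells together and -3.87 for the epithelium-like ones. For Nox3 by Foxi1 it was -1.55 at a pseudocount of 10, -1.18 as that ratio, -4.39 without Sox10 cells, -4.35 without wild-type Xist cells and -0.75 without cluster 1. For Nox3 by Sox10 it was 1.64 at a pseudocount of 10, 0.64 as the ratio, 1.05 without Foxi1 cells and 1.75 without Xist cells. The cause of these moves was not tested.

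Of the members in epithelium-like cells, 3 were lower past the fold between genotypes and 1 was without cluster 2, against Xist cells, as the ratio, or past 2 log2 units; at a pseudocount of 10, 2 were. In place of 0 higher, 1 was against wild-type cells without Xist. By Foxi1, 1 was higher and 0 were without Xist cells, as the ratio or past 2 log2 units, and 2 were lower and 1 was among cells of at least 2000 genes, without cluster 1 or past 2 log2 units. By Sox10, 3 were higher and 0 were as the ratio. Noxo1 between genotypes ran from -0.73 to 1.03 and changed sign. The share of genes past the fold downward in epithelium-like cells was 2.20% among genes in 25% of cells and 0.296% with no filter. Cell classes were the same with 5 or 12 clusters and with 3000 variable genes. No paired analysis was possible because the labels number cells and tie no cell to an animal.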
